A study of Rattus norvegicus with 10 samples.

Results

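The data described here are the resting transcriptome of the supraoptic nucleus (SON), a small hypothalamic nucleus beside the optic chiasm, in Wistar Han rats that drank freely. The members are the 5 euhydrated libraries of a series of 10, chosen by their treatment label, and each was read across all 32402 genes that the count table lists. The other 5 samples, from rats kept 72 h without water, were not analysed here, so every value below is a level at rest and no contrast between treatments was made. Per the labels' protocols, brains were frozen on dry ice, the nuclei of both sides were punched out of 12 slices with a corer 1 mm wide, and libraries were made from polyadenylated RNA with a stranded kit. Tissue was taken in late morning, and the labels give neither the age nor the sex of the rats, nor whether each sample came from a separate animal. The spread between libraries may therefore be partly technical.

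Magnocellular neurons of the SON make vasopressin or oxytocin as part of larger precursor proteins, cleave these in dense-core granules, carry them down axons to the posterior pituitary and release the hormones into the blood when plasma osmolality rises, during suckling or at birth. The same granules carry dynorphin and other co-peptides, and the somata and dendrites also release peptide locally, where it acts on receptors of the same neurons. The nucleus is densely supplied with capillaries and wrapped by astrocytes, and it borders the optic chiasm, a tract rich in myelin.

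The 5 libraries held between 25605517 and 28491926 counts assigned to genes. A library detected between 18709 and 18969 genes by at least 1 count, while 21157 were detected in any library and 17040 in every one. Levels are given as CPM, which are counts scaled to a common library total after scaling by the trimmed mean of M values (TMM), with the mean and SD of the 5 libraries. In a library of this size 1 count equals about 0.0365 CPM. CPM were not divided by transcript length, because no transcript length was used here, so an order of genes by CPM is an order of reads and not of molecules. The columns are called euhydrated 1 to 5 after their number in the count table. In a punch of mixed tissue, fewer cells of a type and less RNA per cell cannot be told apart.

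The 3 precursor genes that carry most of the hormone and co-peptide reads lie on the same chromosome, and the 250 bases before their annotated starts are shown because these are the segments where transcription of the main magnocellular products begins. The sequences are those of RefSeq on GRCr8, read 5′ to 3′ on the strand of the gene. Avp, for the vasopressin precursor, is at chr3:138248523-138248772 on the minus strand. Oxt, for the oxytocin precursor, is at chr3:138235504-138235753 on the plus strand. Pdyn, for prodynorphin, is at chr3:137366504-137366753 on the minus strand. Capitals mark TATAAA or CATAAA, the letters of a TATA box, within 50 bases of the start, and outside that window the palindrome CACGTG of an E-box and TGACCT or its reverse complement AGGTCA, the core letters of a nuclear receptor element.
Avp: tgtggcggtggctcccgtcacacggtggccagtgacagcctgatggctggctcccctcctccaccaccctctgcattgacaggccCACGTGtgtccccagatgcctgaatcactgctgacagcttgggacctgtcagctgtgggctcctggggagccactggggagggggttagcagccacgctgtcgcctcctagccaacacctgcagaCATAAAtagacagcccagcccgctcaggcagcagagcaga
Oxt: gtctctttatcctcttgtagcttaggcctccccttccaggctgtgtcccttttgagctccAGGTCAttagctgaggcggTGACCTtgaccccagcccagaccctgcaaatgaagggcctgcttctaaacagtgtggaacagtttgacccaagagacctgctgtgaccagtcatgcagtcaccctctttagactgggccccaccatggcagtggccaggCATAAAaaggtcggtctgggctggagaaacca
Pdyn: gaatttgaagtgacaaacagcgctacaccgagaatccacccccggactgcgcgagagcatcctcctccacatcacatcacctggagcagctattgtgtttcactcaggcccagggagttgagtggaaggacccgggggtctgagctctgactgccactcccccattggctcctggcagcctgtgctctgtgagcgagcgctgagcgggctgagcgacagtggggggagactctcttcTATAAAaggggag

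In Avp, CATAAA ran from 40 to 35 bases before the start and CACGTG from 165 to 160 bases before it. In Oxt, CATAAA ran from 32 to 27 bases before the start, TGACCT from 171 to 166 and AGGTCA from 190 to 185. In Pdyn, TATAAA ran from 13 to 8 bases before the annotated start. All 3 windows thus held TATAAA or CATAAA on the strand of the gene, which was uncommon among promoters in general. Only Pdyn held TATAAA there. The 2 hexamers counted together below are those marked in these 3 genes, so the counts do not test how unusual the 3 are. Of 27457 genes with a promoter in the RefSeq table, 3.77% held TATAAA or CATAAA on their own strand in the last 50 bases, as did 2.07% of the 10897 matched genes at a mean of at least 1 CPM. Among the 31 matched peptide precursors at that level the count was 10, or 32.3%, and among the 50 matched genes at 1000 CPM or more it was 7, or 14%. Avp, Oxt and Pdyn are part of the first count, and Avp and Oxt of the second. TATAAA alone was in 2.46% of all promoters, 8 of the 31 precursors and 4 of the 50 genes. Besides Avp, Oxt and Pdyn, the peptide precursors with such a hexamer were Gal, Vgf, Vip, Pomc, Nppa, Grp and Nppc. CACGTG was found on either strand of 5.79% of all promoters, and TGACCT on either strand of 13.7%. The ratio of observed to expected CpG was 0.278 in Avp, 0.106 in Oxt and 0.457 in Pdyn, below the median of 0.735 for matched genes at 1 CPM or more and, for Avp and Oxt, also below the median of 0.406 for all promoters. A match in these letters is a description of the sequence and not a binding site.

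Of all listed genes 14026, or 43.3%, had a mean of at least 1 CPM. Reads were concentrated in few of them: between 766 and 841 genes held 50% of the counts of a library, and the 10 genes at 5000 CPM or more held 13.1% of all counts. Of those 10, 8 were mitochondrially encoded, led by Mt-co1, a subunit of cytochrome oxidase, at 28324 ± 2406 CPM (SD, n = 5). Mitochondrially encoded genes together took 12.8% ± 0.933 of the counts (range 11.4% to 13.7%). The other 2 were Mbp, for myelin basic protein, at 6431 ± 1005 CPM, and Avp.

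**Figure D1:**
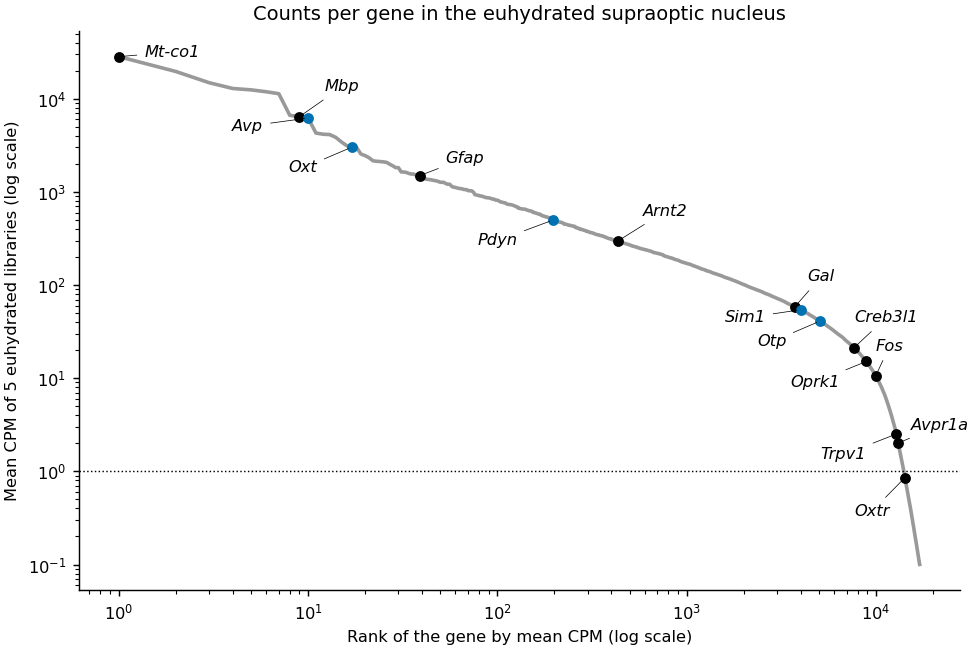
Mean CPM of the 5 euhydrated libraries (vertical axis, log scale) against the rank of the gene by mean CPM (horizontal axis, log scale). Blue points are the markers Avp, Oxt, Pdyn, Sim1 and Otp, black points are other genes named in the text, and the dotted line marks 1 CPM. Avp lies at rank 10 and Oxt at rank 17, while the receptor gene Oxtr lies below the line.

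Avp (ENSRNOG00000021229) had the tenth highest mean of all genes, and the second highest among genes not encoded in mitochondria. Its level was 7419, 4313, 6332, 5851 and 7124 CPM in euhydrated 1 to 5, with a mean of 6208 ± 1229 CPM. Euhydrated 2 was the lowest. Avp reads made up 0.620% ± 0.120 of a library, and in every library it ranked between 8 and 10. Oxt (ENSRNOG00000021225) stood at 3215, 3040, 3302, 2852 and 2691 CPM, with a mean of 3020 ± 252 CPM and a share of 0.302% ± 0.0237. Its libraries lay close together, and euhydrated 2 was not low. In reads, no Oxt value reached the lowest Avp value.

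The CV (coefficient of variation, the SD as a percent of the mean) was higher for Avp than for Oxt, a difference that was not tested. Among the 74 genes at 1000 CPM or more, only Ptgds, for prostaglandin D synthase, had a higher CV than Avp, at 26.6% against 19.8%, while 13 of the 74 had a higher one than Oxt, at 8.35%. Counting error alone would give Avp a CV of 0.243%. Avp counts were 2.31, 1.42, 1.92, 2.05 and 2.65 times the Oxt counts in euhydrated 1 to 5 (mean 2.07 ± 0.458), with neither count divided by length. The ratio was lowest in euhydrated 2, which had the least Avp, and highest in euhydrated 5, which had the least Oxt.

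Pdyn (ENSRNOG00000026036) stood at 530, 380, 476, 532 and 579 CPM, with a mean of 500 ± 76.1 CPM. Euhydrated 2 was again the lowest. Of the 1837 genes between 100 and 500 CPM, 17 had a higher CV than its 15.2%. Sim1, a transcription factor required for magnocellular neurons to form, was at 59.0, 44.7, 48.5, 61.0 and 58.6 CPM, lowest in the same library. Otp, a homeodomain factor of the same lineage, was at 42, 42, 43.3, 34.7 and 43.3 CPM, and its low library was euhydrated 4. All 5 markers were thus present in every library. Their summed level was 9823 ± 1316 CPM, from 7820 CPM in euhydrated 2 to 11265 CPM in euhydrated 1, and Avp and Oxt made up most of it.

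Among secreted peptide and peptide-related genes, 56 of 77 (72.7%) reached 1 CPM, against 43.3% of all listed genes. The lists of every class had been chosen for this tissue, so a share above that of all genes describes the choice as well as the tissue. This holds for each count of list members below. Besides the 3 precursors above, the list of peptides tied to magnocellular neurons held Agt, for angiotensinogen, at 751 ± 98.8 CPM, which is best known from astrocytes. Its values were 706, 890, 679, 661 and 817 CPM, highest in euhydrated 2. After Pdyn there was a wide gap to Penk, for proenkephalin, at 119 ± 11.1 CPM. Penk, Trh, Gal, Cartpt, Tac3 and, below, the convertase Pcsk1 lie outside the rule for named genes and are given because of their roles in peptide secretion, and they were chosen after their values were seen. The levels of Trh, for thyrotropin-releasing hormone, were 58.8, 114, 68, 58.8 and 76.2 CPM. Euhydrated 2, the lowest library for Avp and Pdyn, was thus the highest for Trh. Gal, for galanin, stood at 58.6 ± 8.86 CPM and Cartpt, for the CART peptide, at 58.1 ± 5.73 CPM. The ranges of Trh, Gal, Cartpt and Vgf overlapped from each to the next, so their order was not resolved.

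**Figure D2:**
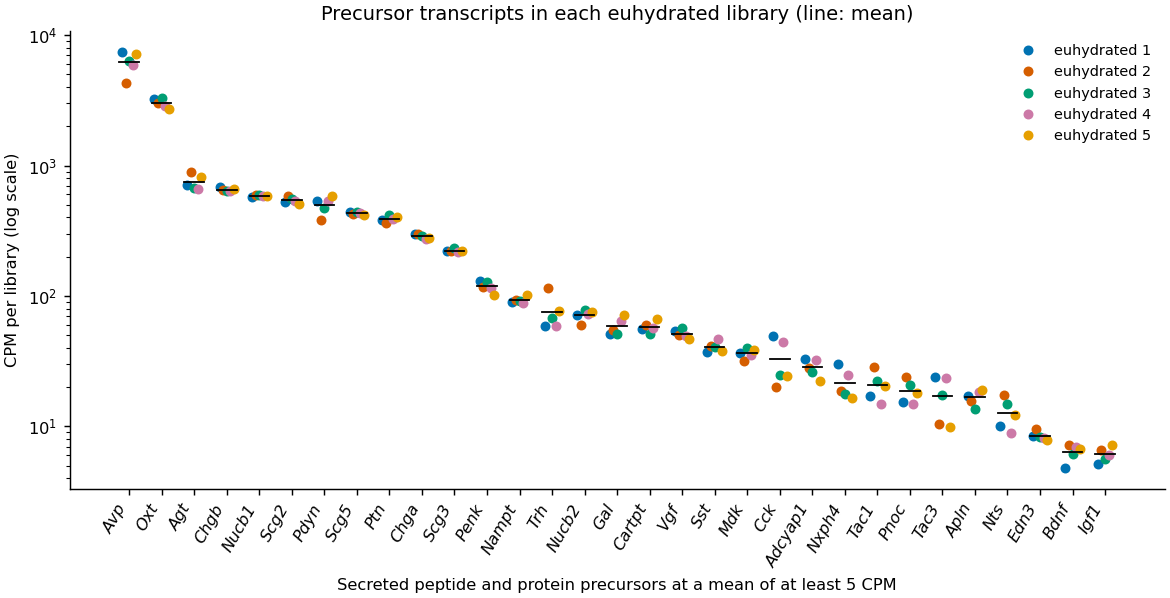
CPM per library (vertical axis, log scale) of the secreted peptide and protein precursors at a mean of at least 5 CPM, in order of the mean. Points are the 5 euhydrated libraries and the line is their mean: Avp and Oxt stand above the rest, the orange points of euhydrated 2 lie lowest for Avp and Pdyn and highest for Trh, and Cck and Tac3 spread widely.

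Other hypothalamic peptide precursors were read at lower levels. Sst, for somatostatin, stood at 40.8 ± 3.85 CPM and Adcyap1, for the peptide PACAP, at 28.3 ± 4.40 CPM. Cck, for cholecystokinin, which magnocellular oxytocin neurons and cortical neurons both make, had the highest CV of the class. Its values were 49.5, 19.9, 25, 44 and 24.5 CPM, high in euhydrated 1 and 4 and low in the other 3. Tac3, for neurokinin B, followed the same order of libraries in part, with 24, 10.5, 17.6, 23.4 and 9.83 CPM. Crh, for corticotropin-releasing hormone, at 3.19 ± 1.25 CPM, and Vip, for vasoactive intestinal peptide, at 3.35 ± 0.917 CPM, were near the lower end. Of the 28 members of the list of other hypothalamic peptides 17 reached 1 CPM, and the nearest to that line were Npb, for neuropeptide B, at 1.04 CPM above it and Prok2, for prokineticin 2, at 0.284 CPM below it. Among vasoactive and metabolic peptides 12 of 20 did so. They were led by Nucb1, for the calcium-binding protein nucleobindin 1, at 588 ± 7.81 CPM, which had the lowest CV of the class, and Ptn, for pleiotrophin, at 393 ± 20.8 CPM. Nucb2, the precursor of nesfatin-1, was at 71.3 ± 6.62 CPM.

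Some members had few or no counts in a way that the table itself may set. Npy, for neuropeptide Y, had 0 counts in all libraries, but the count table lists 2 records of that gene and both were at 0. A count of 0 over the 5 libraries allows up to 0.0219 CPM (3 counts of their total, counting error only). Pcsk1n, for the granin proSAAS, also had 2 records, with 2 and 55 counts. Reads that match more than 1 record may be left uncounted, which was not tested, so a listed 0 says nothing about whether the gene is expressed. The same holds for Clcn2, Otx2 and Qrfp, each with 2 records and no count in either. Avpr1b, Kcnip2 and Ogn likewise had 2 records each. Eno2, for a neuronal enolase, was at 0.238 ± 0.126 CPM, while its fellow neuron markers were far higher. It was not among the genes found with 2 records, and the reason for its low level was not tested.

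Among genes of dense-core granules, most granins had many reads, and the median CV of the 6 at 5 CPM or more was 3.67%. Granins help to condense hormone in the granule, and 6 of 7 members of that family reached 1 CPM. Chgb, for chromogranin B, stood at 655 ± 18.2 CPM, Scg2, for secretogranin II, at 541 ± 31.6 CPM, Scg5, for the chaperone 7B2, at 431 ± 8.87 CPM, and Chga, for chromogranin A, at 288 ± 12.8 CPM. Vgf and Pcsk1n had the fewest reads of the list, at 51.3 and 0.015 CPM. The ranges of the libraries did not overlap between any neighbours of this list. Its summed level varied by a CV of 2.14%, against 11.5% for the magnocellular peptides. The enzymes that cut and amidate the precursors were all above 1 CPM, 9 of 9. Their median CV was 5.93%, against 5.57% for all genes at 5 CPM or more, and 1 had a CV above 20%. Cpe, for carboxypeptidase E, which trims basic residues, stood at 1352 ± 40.1 CPM. Pam, for the enzyme that amidates vasopressin and oxytocin, was at 744, 657, 760, 762 and 745 CPM, lowest in euhydrated 2. Pcsk2, a prohormone convertase, was at 171, 172, 170, 169 and 162 CPM, highest in euhydrated 2, while Pcsk1, another, was lowest there at 34.9 CPM against 43.9 to 49.7 CPM in the rest. Euhydrated 2 was the lowest library for 5 of the 9 enzymes and the highest for 2.

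Receptors formed a long list of mostly low-count genes, with a median of 9.77 CPM. Of these, 163 of 191 (85.3%) reached 1 CPM, against 43.3% of all listed genes. The receptors of the hormones made in the nucleus had few reads. Avpr1a, the vascular and neuronal vasopressin receptor, was at 1.75, 2.17, 2.42, 2.04 and 1.72 CPM, and Oxtr, the oxytocin receptor, at 0.767, 0.975, 0.772, 1.000 and 0.767 CPM. Their CVs were 14.6% and 14%, where counting alone gives 13.4% and 20.7%, so differences between libraries were not detectable at this depth. Avpr1b had 2 counts over all libraries and Avpr2, the renal vasopressin receptor, had 1. Aplnr, for the apelin receptor, was the only member of that list above 5 CPM, at 43.9 ± 3.46 CPM. Agtr1a, the main angiotensin receptor, stood at 1.42, 2.38, 2.53, 1.35 and 1.46 CPM, with euhydrated 2 and 3 above the other 3. Agtr2, the second type, at 0.956 CPM, was the member next below 1 CPM.

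Receptors for co-released and afferent peptides were read at moderate levels. Oprl1, for the nociceptin receptor, stood at 51.6 ± 2.98 CPM, and Oprk1, for the kappa receptor on which dynorphin acts, at 15.6, 15.7, 13.7, 15.8 and 14.8 CPM. Galr1, for a galanin receptor, was at 16.7, 11.4, 18.6, 20.9 and 18.1 CPM, lowest in euhydrated 2. Cckar, for a cholecystokinin receptor, was at 2.41, 4.41, 2.63, 2.38 and 4.27 CPM, so that euhydrated 2 and 5 lay apart from the rest. Among other peptide receptors 41 of 46 reached 1 CPM, led by Adcyap1r1, for the PACAP receptor, at 418 ± 17.0 CPM, and Sort1, for the sorting receptor sortilin, at 397 ± 22.0 CPM. Gpr37 and Gpr37l1, orphan-type receptors known from oligodendrocytes and astrocytes, were at 156 ± 12.6 and 151 ± 9.36 CPM.

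Receptors for classical transmitters were also widely read. Gabbr1, a subunit of the GABA-B receptor, had the most reads of the receptor class, at 1268 ± 27.0 CPM, and Gabbr2, its partner, was at 236 ± 9.07 CPM. Of glutamate receptor genes 25 of 26 reached 1 CPM. Grin1, the obligatory NMDA receptor subunit, stood at 428 ± 16.5 CPM and Gria2, the AMPA receptor subunit that limits calcium entry, at 363 ± 22.7 CPM. Among amine and acetylcholine receptors 30 of 39 did so, with Htr2c, a serotonin receptor, at 131 ± 7.29 CPM and Chrm1, a muscarinic receptor, at 29.0, 12.0, 14.7, 25.5 and 17.5 CPM, the highest CV of the class. Chrm1 was high in euhydrated 1 and 4, as Cck was. Cnr1, the cannabinoid receptor of nerve terminals, was at 132 ± 9.19 CPM.

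Steroid and thyroid hormone receptors were even between libraries only in sum: their summed level had a CV of 0.471%. The median CV of the 14 members at 5 CPM or more was 6.31%, against 5.57% for all genes at that level. Thra, a thyroid hormone receptor, stood at 410 ± 11.7 CPM and Nr3c1, the glucocorticoid receptor, at 74.6, 71.7, 75.4, 82.5 and 86.9 CPM. Nr3c2, the mineralocorticoid receptor, was at 19.3 ± 1.30 CPM. Estrogen receptors were near the line, Esr1 at 3.10 ± 0.520 CPM and Esr2, which magnocellular neurons are known to make, at 2.15, 2.60, 1.47, 2.50 and 2.63 CPM. The ranges of Esr1 and Esr2 overlapped.

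**Figure D3:**
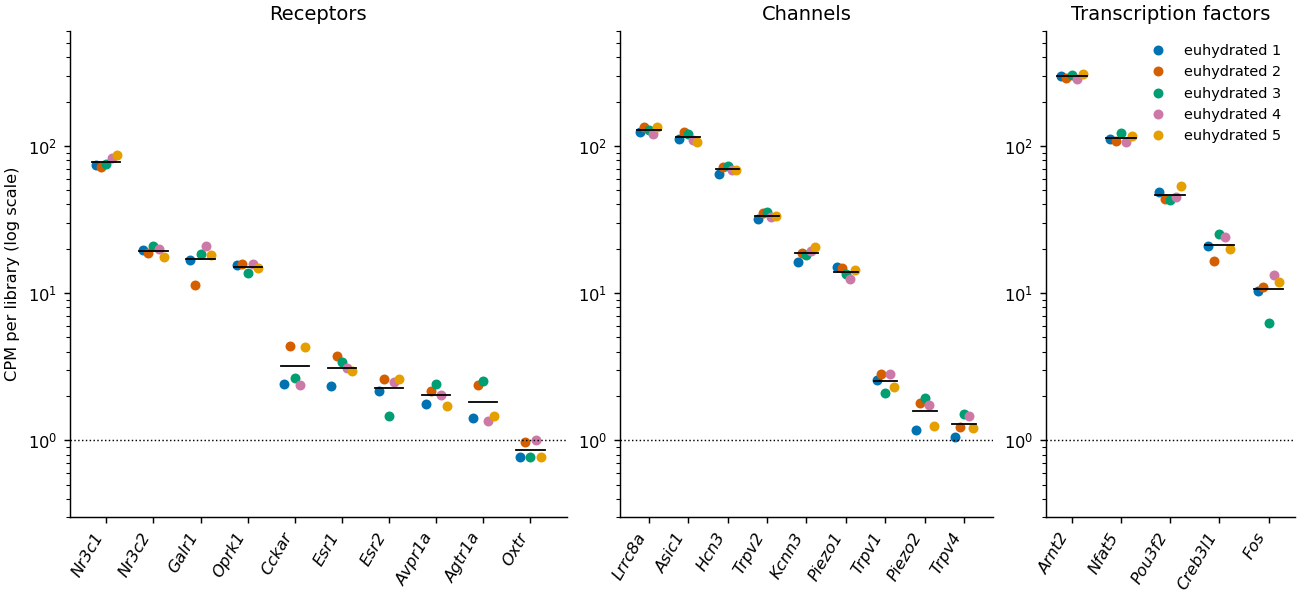
CPM per library (vertical axis, log scale) of receptors, channels and transcription factors picked for their known roles in the nucleus. Points are the 5 euhydrated libraries, lines are means and the dotted line marks 1 CPM: Oxtr lies at or under the line, Trpv1, Piezo2 and Trpv4 just above it, and Fos and Galr1 each have 1 low library.

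Of the channel genes, 165 of 191 (86.4%) reached 1 CPM, against 43.3% of all listed genes. Their median was 25.1 CPM, and their summed level was the most even of the 5 classes (CV 0.637%). Dpp6, an auxiliary subunit of A-type potassium channels, which shape firing onset, stood at 527 ± 7.97 CPM and had the lowest CV of the class. Kcna2, a delayed-rectifier subunit of axons, was at 236 ± 9.25 CPM. Kcnn3, a small-conductance calcium-activated potassium channel of magnocellular neurons, was at 16.3, 18.9, 18.0, 19.2 and 20.6 CPM. Kcnt1, a sodium-activated potassium channel, was at 72.7 ± 7.91 CPM. Kcnj10, the potassium channel of astrocytes, was at 57.9 ± 5.09 CPM.

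Sodium and calcium channel genes were also read widely, 18 of 22 and 30 of 33. Scn2a, the sodium channel of axon initial segments, stood at 338 ± 8.10 CPM, Scn3b, an auxiliary subunit, at 218 ± 6.67 CPM, and Nalcn, the sodium leak channel that sets resting potential, at 186 ± 3.43 CPM. Asic1, an acid-sensing channel, was at 114 ± 7.12 CPM. Cacna2d2, an auxiliary calcium channel subunit, was at 193 ± 16.3 CPM, with euhydrated 2 highest at 218 CPM, and its range overlapped that of Cacng7, another, at 189 ± 5.16 CPM. Cacna1b, the N-type channel that triggers release at terminals, was at 146 ± 3.19 CPM.

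The candidate sensors of osmolality and stretch named here were all above 1 CPM. Trpv1, which as a variant has been tied to osmosensing in this nucleus, was at 2.56, 2.82, 2.11, 2.81 and 2.30 CPM, and Trpv4, another osmosensitive channel, at 1.06, 1.23, 1.51, 1.46 and 1.21 CPM. Trpv2, a relative of both, was at 32, 34.8, 35.3, 32.8 and 33.3 CPM. Piezo1, a mechanosensitive channel, was at 14 ± 1.09 CPM and Piezo2 at 1.58 ± 0.346 CPM. Tmem63b, for a channel opened by osmotic stretch, was at 144 ± 4.05 CPM. Pkd1, for polycystin 1, led this list of 34, of which 28 reached 1 CPM, at 156 ± 3.08 CPM. The pacemaker channels Hcn2 and Hcn3 stood at 99.7 ± 8.32 and 69.4 ± 3.16 CPM. Among anion channels 24 of 30 reached 1 CPM. Ttyh1, a glial membrane protein, was at 623 ± 34.6 CPM, and Lrrc8a, the obligatory subunit of the volume-regulated anion channel, at 123, 133, 129, 120 and 133 CPM. Best1, for a calcium-activated chloride channel, had the highest CV of the class at 83.1%, with 22.5, 20.2, 5.90, 3.31 and 4.20 CPM.

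Transcription factors reached 1 CPM in 146 of 165 cases (88.5%), against 43.3% of all listed genes. In the magnocellular lineage list, 9 of 11 did. Arnt2, the partner with which Sim1 binds DNA, stood at 296, 289, 303, 284 and 308 CPM, an even level. Pou3f2, also called Brn2 and required for the same neurons, was at 46.6 ± 4.35 CPM, and the ranges of Sim1, Pou3f2 and Otp overlapped from each to the next. Creb3l1, a factor that acts on the vasopressin gene, was at 20.8, 16.6, 25.2, 24 and 19.9 CPM, lowest in euhydrated 2. Rora, an orphan nuclear receptor, at 2.87 CPM, and Sim2, a paralogue of Sim1, at 0.167 CPM, lay nearest to the line on either side.

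Among stress and osmotic factors 26 of 27 reached 1 CPM. Tsc22d1 stood at 347 ± 23.3 CPM, Epas1, for the hypoxia factor HIF-2 alpha of vessels, at 292 ± 27.9 CPM, Atf4, of the integrated stress response, at 195 ± 8.43 CPM, and Nfat5, the tonicity-responsive factor, at 112, 108, 122, 105 and 117 CPM. Creb3 had the lowest CV of the class, 1.49%. Clock genes were also widely read, 17 of 18, with Tef at 149 ± 8.82 CPM and Dbp, an output gene of the clock, at 103 ± 9.07 CPM in this late-morning tissue. Peg3, an imprinted factor that is highly read in the hypothalamus, had the most reads of the class, at 3011 ± 110 CPM.

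The AP-1, EGR and NR4A list holds immediate early genes, which neurons switch on when they fire, together with related factors. Of its 24 members 21 reached 1 CPM. Jund, at 91.3 ± 7.24 CPM, and Jun, at 66.2 ± 3.94 CPM, led it. Egr1 was at 50.6, 41.5, 21.6, 67.1 and 50.3 CPM and Fos at 10.4, 11, 6.28, 13.3 and 12.0 CPM. For both genes euhydrated 3 was the lowest and euhydrated 4 the highest, and Egr1 had the highest CV of the class. Over the list's 21 members at 1 CPM or more, the mean log2 deviation from the mean of the 5 libraries was -0.26 in euhydrated 3 and 0.21 in euhydrated 4. Npas4, an activity-regulated factor of neurons, was next below the line at 0.994 CPM, with 2.20 CPM in euhydrated 2 and 0.456 to 0.923 CPM in the rest.

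The punches held many cell types besides magnocellular neurons. Of 172 marker genes 137 (79.7%) reached 1 CPM, against 43.3% of all listed genes. The 15 genes with the highest means outside mitochondria included, besides Avp and Oxt, the myelin gene Mbp, the astrocyte genes Sparcl1 and Apoe, and Scd2, for a lipid enzyme. Zwint, for a kinetochore protein that is also read in neurons, was at 3437 ± 56.7 CPM. Astrocyte markers were all above 1 CPM, 12 of 12, with S100b at 1980 ± 118 CPM, Aqp4, for the water channel of astrocyte endfeet, at 1620 ± 141 CPM and Gfap at 1500 ± 182 CPM. Oligodendrocyte markers, 11 of 11, summed to 12824 ± 1888 CPM, from 10353 CPM in euhydrated 3 to 15015 CPM in euhydrated 5, and held more reads than the magnocellular markers in every library. Broad neuron markers were more even, with Map2 at 1580 ± 44.5 CPM and Snap25, for a synaptic vesicle fusion protein, at 1322 ± 82.6 CPM, and a summed CV of 2.56%.

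Other neuron types were also represented. Gad2 and Gad1, for the enzymes that make GABA, stood at 532 ± 29.0 and 319 ± 14 CPM, and Slc17a6, for the glutamate transporter VGLUT2 of hypothalamic neurons, at 174 ± 8.98 CPM. Slc17a7, for VGLUT1, which is typical of cortex, was at 71.4, 11.5, 49.7, 90.8 and 22.8 CPM. It was highest in euhydrated 4 and 1, the libraries where Cck, Tac3 and Chrm1 were also high, and its part in those levels was not tested. Of the markers of cortical and striatal neurons 9 of 10 reached 1 CPM, their sum ran from 130 CPM in euhydrated 2 to 151 CPM in euhydrated 1, and Emx1, next below the line, was at 0.680 CPM. Neurod6, a cortical factor, was at 2.34, 0.578, 1.30, 2.85 and 1.35 CPM, again highest in euhydrated 4 and 1. Th, for the enzyme of catecholamine synthesis, was at 22.3, 28.7, 32.9, 33.8 and 45.2 CPM and Chat, for that of acetylcholine synthesis, at 19.0, 26.5, 36.2, 25.3 and 22.2 CPM, both lowest in euhydrated 1. Markers of noradrenergic and serotonergic cell bodies were near 0, Tph2 at 0.511 CPM.

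Vascular, immune and border cells gave further reads. Endothelial markers were above 1 CPM in 9 of 9 cases, with a summed CV of 2.30%. Microglia and macrophage markers were so in 15 of 15, led by Csf1r, for the growth factor receptor of these cells, at 114 ± 5.08 CPM. Erythrocyte markers had the highest summed CV, 24.3%, among cell type lists with a sum above 100 CPM, from 1038 CPM in euhydrated 1 to 2080 CPM in euhydrated 4. Hba-a1, for a hemoglobin chain, was at 613, 839, 893, 1185 and 1122 CPM, though hemoglobin genes have near-identical copies and their counts are uncertain. Choroid plexus markers were low, 5 of 7 above 1 CPM, and Ttr, for transthyretin, the defining one, was at 3.21, 4.80, 19.0, 20.4 and 4.13 CPM. Pituitary markers were at or near 0 for Prl, Fshb and Cga, and 3 of 10 reached 1 CPM, Lhb and Pomc among them. Of 11 markers of lymphocytes and neutrophils, Cd4, which rat macrophages also carry, was the only one above the line.

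**Figure D4:**
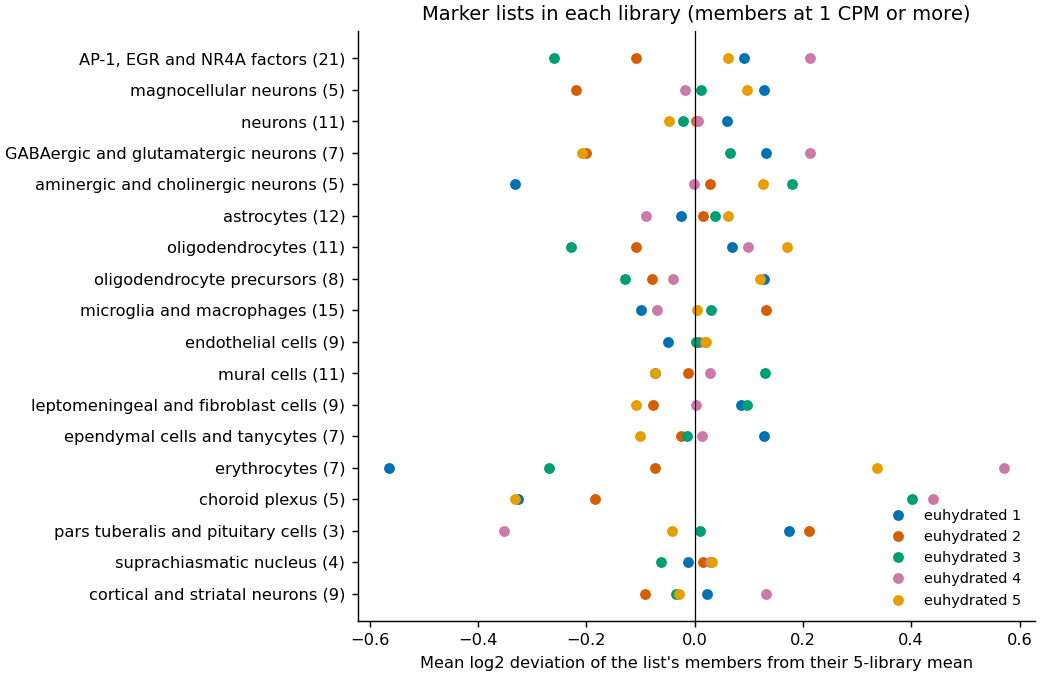
Mean log2 deviation of each list's members from their own mean over the 5 libraries (horizontal axis), for members at 1 CPM or more, whose number is in brackets. Each point is 1 library: erythrocyte, choroid plexus, pituitary and aminergic lists spread most widely. The endothelial, suprachiasmatic and broad neuron lists spread least, and euhydrated 2 lies lowest for magnocellular neurons.

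Euhydrated 2, the low library for Avp, Pdyn and Sim1, was not low in all markers. Its mean log2 deviation was -0.22 for the 5 magnocellular markers and -0.20 for markers of GABAergic and glutamatergic neurons. The summed level of the latter list was instead highest in euhydrated 2, at 2008 CPM, and lowest in euhydrated 5, at 1845 CPM. Slc17a7, 1 of its 7 members, was at 11.5 CPM in euhydrated 2, against a mean of 49.3 CPM. For the list of magnocellular peptides the deviation of euhydrated 2 was -0.06, and euhydrated 3 was lower at -0.10. Euhydrated 2 had 0.0018 for broad neuron markers, 0.02 for astrocytes, 0.13 for microglia and -0.11 for oligodendrocytes. Its library total, 27742844 counts, and its mitochondrial share, 13.4%, lay within the range of the others. The part of tissue makeup in its low Avp was not tested.

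Over all genes the libraries differed by more than counting alone and by an amount that depended on abundance. Between pairs of libraries, chi-square per degree of freedom was 7.09 to 12.7, so no 2 libraries agreed within counting noise; this does not show whether they came from separate animals. The median CV was 16.7% between 1 and 5 CPM, where counting gives 12.3%, and 3.25% between 500 and 1000 CPM, where counting gives 0.746%. Above 1000 CPM it was 4.01%. The typical biological CV was 7.27% (median over 14690 genes) in edgeR's estimate, which draws each gene's value toward a trend over genes. It is not what remains of the CV after counting error. At 5 CPM or more its median was 6.26%, above the median CV of 5.57%. Of the 11654 genes at 5 CPM or more, 263, or 2.26%, had a CV above 20%. Among members at that level, 8 of 40 secreted peptide genes, 12 of 123 receptors, 7 of 145 channels, 8 of 126 transcription factors and 18 of 122 cell type markers did. The median CV of these classes was 9.43%, 8.01%, 6.64%, 7.89% and 9.44%, against 5.57% for all genes at 5 CPM or more. CV falls with abundance, and these medians were not matched on it.

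**Figure D5:**
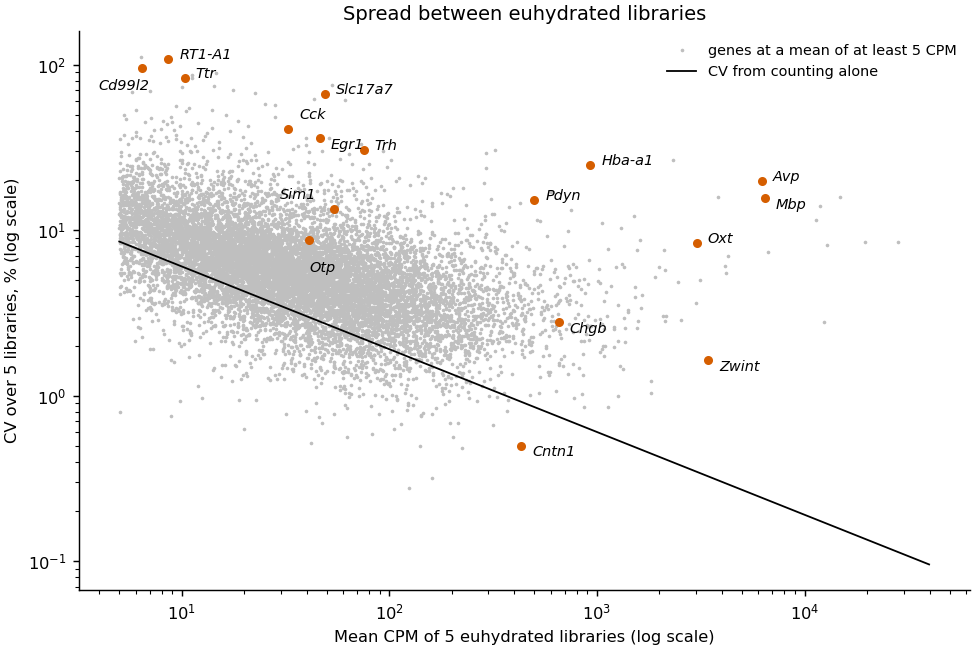
CV over the 5 euhydrated libraries (vertical axis, percent, log scale) against mean CPM (horizontal axis, log scale) for genes at a mean of at least 5 CPM, in grey, with named genes in orange. The black line is the CV that counting alone would give: Avp and Mbp lie far above it at high CPM, and Cntn1 lies below it.

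The 10 lowest CVs belonged to Eif2s3, Fxr2, Eif5a, Rusc2, Cntn1, Dnajc2, Wdr7, Tlk2, Itprid2 and Slirp. Eif2s3, a translation initiation factor, was at 124 ± 0.343 CPM and Cntn1, a neuronal adhesion molecule, at 433 ± 2.17 CPM. Such CVs are below what counting alone gives, as they were for 1717 genes (14.7%), so these 10 are the lower tail of many genes rather than a measured absence of variation.

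The most variable genes were not all high in the same libraries. RT1-A1, a class I histocompatibility gene of a family with many near-identical copies, had a CV of 108%, with 25.2, 5.56, 4.81, 3.65 and 3.84 CPM. Cd99l2, for a cell adhesion molecule, was at 8.84, 15, 7.44, 0.577 and 0.365 CPM, so that euhydrated 4 and 5 were near 0. Mt-nd6, a mitochondrial gene on the opposite strand to the other protein-coding ones, was at 108, 83.6, 30.6, 19.7 and 24 CPM, high in euhydrated 1 and 2. The mitochondrial genes at 1000 CPM or more had CVs between 2.77% (Mt-co2) and 15.9% (Mt-nd2). Lbp, for a lipopolysaccharide-binding protein, was also high in euhydrated 1 and 2, at 8.95 and 10.9 CPM, as was Best1. Cxcl13, for a chemokine, stood at 9.68, 1.37, 7.58, 13.4 and 3.03 CPM and Oacyl, for an acyltransferase-like protein, at 17.3, 3.58, 3.79, 28.4 and 18.8 CPM. Of the 85 genes with a CV above 30%, the 2 highest libraries were euhydrated 1 and 4 for 24 genes, 28.2%, and euhydrated 1 and 2 for 14 genes. They were euhydrated 2 and 4 for 0 genes. Every gene has such a pair by definition, and these counts were not tested. Euhydrated 1 was the highest library for 29 of the 85 and euhydrated 5 for 6.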

How the data were processed

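The main file holds whole-number read counts for each Ensembl gene, deposited by the authors without scaling. A further deposited table gives the authors' treatment contrast, with log2 fold changes, p-values and a Wald score, next to normalised counts (a signal), per the file headers. Only its gene symbols and NCBI gene numbers were used here and, as an alternative, its normalised counts. These counts in 100% of cases matched the raw count over a constant for the column. The submitters' processing notes name STAR, featureCounts, CASAVA, FastQC and DESeq2 1.28.1. Build, annotation release and strand setting were not given in the sources used here, and overlapping or near-identical genes are therefore uncertain.

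Columns were tied to samples by name. Euhydrated 1 and 2 matched 1 sample each, and the other 3 columns were tied to the group only, because their numbers appear in different ways in the labels. There was 1 group, so nothing was tested. CPM were counts divided by the library total and the TMM factor (0.986 to 1.02; edgeR 4.0.16, R 4.3.3). The biological CV came from edgeR's estimateDisp, intercept only and robust, and was tested on simulated data. The counting CV is that of a Poisson count. The members and lists (43 lists, 817 memberships) were chosen with earlier results of these data known. Of 787 symbols in the lists 14 were unmatched and not analysed here, and 407 listed genes have no symbol.

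Named genes were the 5 markers, the 15 highest means, in each list up to 4 highest members, members with no count and those next to 1 CPM, a set picked for known roles, the 10 highest and lowest CVs at 5 CPM or more with uncharacterised loci left out, and each class's extreme CVs. Some genes that met this rule are not reported here. Promoters are RefSeq sequences on GRCr8, 1 per gene, matched by gene number or symbol. Alternatives were DESeq2 1.42.0 size factors, library totals, mitochondrially encoded genes left out, Avp and Oxt left out of scaling, other filters, and each library left out.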

Additional observations from a re-analysis of the deposited data

Results flagged for a closer look

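In groups of 5 libraries, the gap from the highest or lowest library to its nearest neighbour was compared with the whole range, and 9 of the 304 values examined stood far from the rest by Dixon's 95% limit. Chance flags about 1 in 20 such groups, a larger share than 9 of 304, and no cause was tested.

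Euhydrated 2 was the low library for 3 values. Pam, for the amidating enzyme of peptide hormones, was at 657 CPM there and at 744 to 762 CPM in the other 4. The summed level of the peptide processing enzymes, of which Pam is part, was 2474 CPM against 2638 to 2703 CPM. Cry2, a clock repressor, was at 87.5 CPM against 95.7 to 97.4 CPM.

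Euhydrated 5 stood apart for 3 values. Pcsk2, a prohormone convertase, was at 162 CPM against 169 to 172 CPM, and Tbr1, a cortical factor, at 12.4 CPM against 15.4 to 16.5 CPM. The summed level of broadly expressed neuronal and glial factors was highest there, at 4722 CPM against 4440 to 4507 CPM.

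Otp, a marker of the magnocellular lineage, was at 34.7 CPM in euhydrated 4 and at 42 to 43.3 CPM in the rest. In euhydrated 1, Kcnmb4, an auxiliary subunit of large-conductance potassium channels, was at 61.6 CPM against 53.7 to 55.2 CPM, and RT1-A1, of the class I histocompatibility family, at 25.2 CPM against 3.65 to 5.56 CPM.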

How the results depend on the processing

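No paired analysis was possible because only 1 group of the series was used and nothing was compared between groups. With DESeq2 size factors, library totals, the authors' normalised counts or Avp and Oxt left out of scaling, the mean of Avp stayed between 6204 and 6266 CPM and that of Oxt between 3019 and 3048 CPM. Leaving out mitochondrially encoded genes raised all levels by a median of 0.20 on the log2 scale. Oxt then stood at 3463 CPM and 0.346% of the counts, Avp and Oxt together at 1.06%, and 177 of 276 named genes moved by more than their SD. With Avp and Oxt left out of scaling 10 of 289 did. Leaving out each library in turn gave 5926 to 6685 CPM for Avp, the highest without euhydrated 2, and 1.92 to 2.23 for the ratio of Avp to Oxt counts. The number of genes above the line was 14005 to 14172 under these scalings and left-out libraries, 13579 when every library had to reach 1 CPM, 14914 at 0.5 CPM and 11654 at 5 CPM.

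The median biological CV was 7.40% with library totals, 7.27% to 7.56% with each library left out, 10.8% with no filter beyond 1 count, 6.26% at a mean of 5 CPM or more and 6.13% in edgeR without robust estimation and trend. Values per kilobase of transcript, planned for the order within lists and for the ratio of Avp to Oxt, were not run, as no transcript length was used here. Counting error was a large part of the spread at low counts. It gave a CV of 12.3% where the median CV was 16.7%, between 1 and 5 CPM. Between 5 and 10 CPM it gave 7.07%, where the median CV was 9.94%. With 5 libraries a CV of a single gene is itself imprecise.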

Other observations

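Genes whose levels varied most between libraries also differed from the rest in their upstream letters. Among matched genes at 5 CPM or more, TATAAA or CATAAA lay on the gene's strand within 50 bases of the RefSeq start in 19 of 190 genes (10%) with a CV above 20%, and in 142 of 9168 (1.55%) of the others. The median ratio of observed to expected CpG in the 250 bases before the start was 0.495 in the first set and 0.758 in the second. GGGCGG, the letters of a GC box, was found on either strand in 58.1% of matched genes at 1 CPM or more, in 32.4% of all promoters and in 32.3% of the peptide precursors at 1 CPM or more. The share with either hexamer also changed with abundance. It was 3.37% of matched genes at 1 to 10 CPM, 1.44% at 10 to 100, 2.10% at 100 to 1000 and 14% at 1000 CPM or more. The sets above were not matched on abundance, and these shares are descriptions that were not tested.

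Ptgds, for prostaglandin D synthase, an enzyme of meninges and oligodendrocytes, was at 2450, 2138, 3209, 2346 and 1488 CPM. It was highest in euhydrated 3 and lowest in euhydrated 5. Bcat1, for a branched-chain amino acid aminotransferase, at 2158 ± 65.6 CPM (SD, n = 5), and Map1b, for a cytoskeletal protein of neurons, at 2074 ± 63 CPM, had CVs of 3.04% and 3.03%, in the same band of abundance.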
